A study of Mus musculus with 9 samples.

Results

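The 10 genes described here code for proteins that mouse neutrophils store in secondary and tertiary granules, for surface proteins that appear with them, and for a transcription factor that drives this program. They are Ltf, Camp, Ngp, Lcn2, Fcnb, Cebpe, Chil3, Cd177, Ly6g and Mmp8. They were chosen by name, and every entry with one of these names was taken from the authors' table of top marker genes, which holds 293 entries for 234 different genes and 17 bone marrow cell populations. All 10 were listed, in 18 entries. The study applied droplet-based single-cell RNA-Seq with a 3′ kit to bone marrow mononuclear cells of C57BL/KaLwRij mice, in 9 samples labelled with an age of 12 weeks. The labelled agent was Control in 2 of them, PBS in 3 and CST6 in 3, and the remaining sample, which carries no such label, was left unassigned. Among the PBS samples, 1 has a title numbered like those of the Control samples, so its label is in doubt, but no value here rests on the groups. Per the study, Control mice received no myeloma cells, PBS mice received 5TGM1 myeloma cells and PBS, and CST6 mice received 5TGM1 cells and recombinant mouse cystatin M/E, and cells were taken from each mouse separately. Myeloma cells marked with GFP were sorted out, and the cells had been isolated on Ficoll-Paque, a density step that removes many of the densest, fully mature neutrophils. The table pools all mice, so the effect of tumor or of CST6 on these genes was not analysed here, and no value below has a replicate error, a known depth or a known number of cells in its population.

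Neutrophils fill their granules in sequence while they mature in the marrow. Promyelocytes make primary granules with myeloperoxidase and serine proteases, myelocytes and metamyelocytes make secondary granules with lactoferrin and cathelicidin, and band cells add tertiary granules with gelatinase. Division ends at about the myelocyte stage, so a cell that still divides and already makes secondary granule proteins stands early in this series. C/EBPε, the product of Cebpe, is required in mice for normal secondary granule genes.

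Of the 10 genes, 4 lie on chromosome 9 in mm10 (GRCm38, positions from GENCODE M21), against 17 of the 226 genes of the marker table that could be placed (7.52%). Camp spans chr9:109847379-109849617 on the minus strand with 4 exons, Ngp chr9:110419747-110423012 on the plus strand with 4 exons, and Ltf chr9:111019271-111042767 on the plus strand with up to 17 exons. These neighbours lie within 1.20 megabases that hold 31 protein-coding genes, of which the marker table lists 4, namely these genes and Cdc25a, a cell cycle phosphatase gene. Mmp8 lies far from them at chr9:7558456-7568485. Lcn2 is found at chr2:32384633-32388252, Fcnb at chr2:28076378-28084885, Chil3 at chr3:106147554-106167564, Cd177 at chr7:24743983-24760311, Cebpe at chr14:54710360-54712174 and Ly6g at chr15:75155240-75159126. All 10 are annotated as protein-coding. Chil3 and Ly6g have close paralogs next to them in the mouse genome, and whether reads were lost or shared between such copies was not tested.

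Since C/EBPε is a C/EBP factor, the promoters of the genes were searched for the letters TTNNGCAA, a core form of the site that C/EBP factors bind, on both strands from 250 bases before to 50 bases after the RefSeq start (GRCm38.p6). RefSeq promoters were at hand for 9 of the 10 genes, all except Cebpe. A match was found for 6 of the 9 (Ltf, Ngp, Fcnb, Mmp8, Lcn2 and Ly6g) and for 10.8% of all 32851 promoters of that length in the RefSeq table. Among other genes listed for neutrophil populations, 8 of 42 had a match. For each motif a gene was counted if any of its promoters matched, whereas the share of all promoters is per promoter. Ly6g had its match in promoter 1 and 0 in promoter 2. Camp, Chil3 and Cd177 had none in this window. A match in letters is not a measured binding site. The 150 bases before the start are shown, with matches in capitals, for the 4 genes in which a match fell there.
Ltf: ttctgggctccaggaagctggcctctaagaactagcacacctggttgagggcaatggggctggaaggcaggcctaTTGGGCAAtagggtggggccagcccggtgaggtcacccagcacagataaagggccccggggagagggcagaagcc
Ngp: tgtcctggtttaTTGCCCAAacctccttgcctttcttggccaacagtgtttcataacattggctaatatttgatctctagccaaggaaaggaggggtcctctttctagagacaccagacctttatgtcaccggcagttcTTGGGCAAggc
Fcnb: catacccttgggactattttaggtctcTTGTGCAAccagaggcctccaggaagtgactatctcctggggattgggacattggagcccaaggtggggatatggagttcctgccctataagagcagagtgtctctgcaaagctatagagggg
Mmp8: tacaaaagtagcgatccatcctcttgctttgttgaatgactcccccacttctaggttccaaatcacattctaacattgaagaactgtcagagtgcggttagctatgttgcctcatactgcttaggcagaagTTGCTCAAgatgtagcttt
These stretches are chr9:111019142-111019291 (plus strand) for Ltf, chr9:110419658-110419807 (plus strand) for Ngp, chr2:28084879-28085028 (minus strand) for Fcnb and chr9:7558279-7558428 (plus strand) for Mmp8. In Ltf the match runs from base -75 to -68 before the start and overlaps a reversed CCAAT at -76 to -72. Ngp has matches at -138 to -131 and at -11 to -4, of which the latter lies inside the gene as GENCODE draws it, since the RefSeq start is 61 bases further downstream. The single Lcn2 match, at -216 to -209, also lies inside the gene as GENCODE draws it, since there the RefSeq start is 513 bases further downstream. Fcnb has its match at -123 to -116, beside another further upstream at -235 to -228, and Mmp8 at -19 to -12. The letters GAGGAA, a core of sites for ETS factors such as PU.1, stood in 5 of the 9 genes and in 28.3% of all promoters, and CCAAT in 6 of the 9 and in 37.4%. TATAAA stood in 4 of the 9 and in 13.6%. Of the 42 other genes of neutrophil populations, 17 had GAGGAA, 26 had CCAAT and 11 had TATAAA.

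The 18 entries all fell in the 5 populations that the authors named neutrophils, so all 10 genes were listed there, against 23.5% of all genes of the table. The genes had been picked as neutrophil genes, so nothing further is read from this count. By the authors' names the populations were ordered as 3 immature and 2 mature ones, and the numbers I to III were not taken as a course in time. Mature is here a name and not a measured stage. Mature Neutrophils I was led by Ltf, a gene of the secondary granules that myelocytes and metamyelocytes make. It listed 0 genes of the late neutrophil list described below, while Mature Neutrophils II listed 6. An immature population listed 5 of the 10 genes (12.8% of all genes of the table), and a mature one 7 of the 10 (12.4%). Fcnb, Cebpe and Chil3 were listed for immature populations only. Camp and Ngp were listed on both sides. Ltf, Lcn2, Ly6g, Cd177 and Mmp8 were listed for a mature population only. Of the 234 genes of the table, 30 were listed for an immature population, 29 for a mature one and 55 for any neutrophil population. Most of these genes thus stood on 1 side only, so the split is not read as a trait of the 10 genes. Of the 10 genes, 5 were listed for more than 1 population (21.4% of all genes). Camp was the single gene of the whole table with as many as 4.

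**Figure D1:**
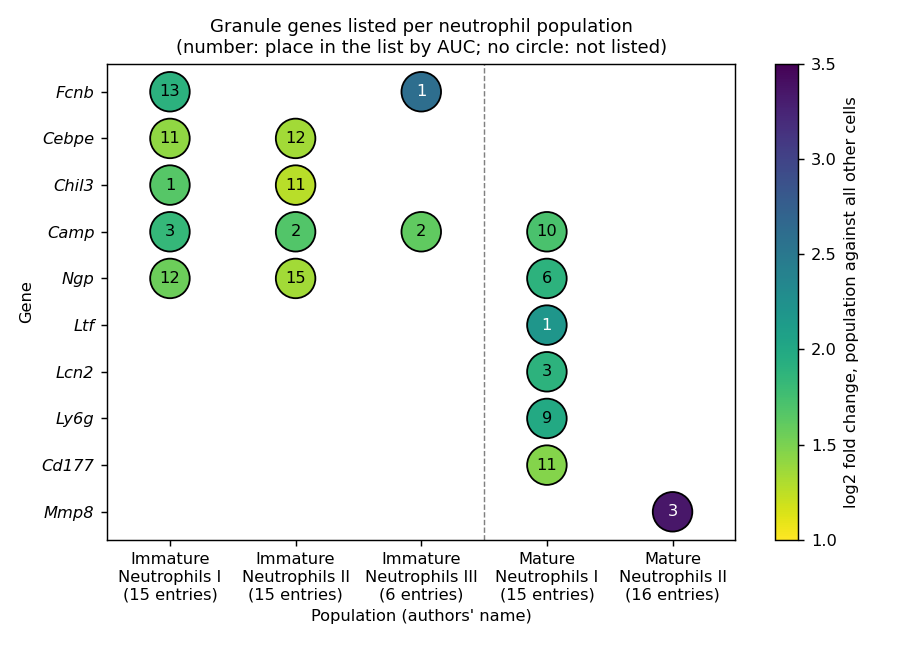
Each circle is an entry of 1 of the 10 genes (rows) in a neutrophil population (columns, immature to the left of the dashed line), coloured by the authors' log2 fold change, with its place in that population's list by AUC as the number. Entries shift from Fcnb, Cebpe and Chil3 in immature populations through Camp and Ngp to Ltf, Lcn2, Ly6g and Cd177 in Mature Neutrophils I, and Mature Neutrophils II holds Mmp8 alone.

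Each entry sets a population against all other cells. The AUC is the authors' score of how well a gene's level alone separates the population, where 1 is full separation and 0.5 none, and genes stand in each list by falling AUC. A list of Immature Neutrophils I or II or of Mature Neutrophils I has 15 entries, that of Mature Neutrophils II 16 and that of Immature Neutrophils III 6. No neutrophil list reached 20, the longest length in the table, and no entry anywhere had an AUC under 0.801 or a log2 fold change under 1.26. A gene that is absent from a list was thus not shown to be low there.

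Cebpe, the factor, was listed for the populations Immature Neutrophils I and II. Its AUC was 0.842 in the former, at place 11, and 0.832 in the latter, at place 12. The log2 fold changes in the authors' table were 1.42 and 1.35. Cebpe had a value above 0 in 95.8% of Immature Neutrophils I and 96.7% of Immature Neutrophils II. Of the other cells, 60.3% and 63.6% had one, the lowest such shares among the immature entries of the 10 genes. Cebpe thus had the widest difference between inside and outside share in both lists, while its fold change was the smallest of the 5 granule genes in Immature Neutrophils I.

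Fcnb codes for ficolin B, a lectin that binds sugars on microbes. It led Immature Neutrophils III with an AUC of 0.940 and a log2 fold change of 2.61, and in Immature Neutrophils I it stood at place 13 of 15 with 0.836 and 1.90. The difference between these fold changes, 0.71 on the log2 scale, was the widest of any of the 10 genes between its own populations. The share of cells with Fcnb was 99.4% in Immature Neutrophils III and 92.8% in Immature Neutrophils I, the latter the lowest inside share among the 18 entries. Fcnb was therefore the gene of the 10 that set Immature Neutrophils III most apart, although that list has only 6 entries.

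Chil3 codes for Ym1, a chitinase-like protein without enzyme activity that neutrophils and macrophages of the mouse make. It was the first of 15 genes in Immature Neutrophils I with an AUC of 0.903 and a log2 fold change of 1.66. In Immature Neutrophils II it stood at place 11 with an AUC of 0.841 and a fold change of 1.27, the smallest of the 18 entries. Every cell of both populations had a value above 0 for Chil3, as rounded in the table. Chil3 and Cebpe were listed for exactly the same populations.

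Camp codes for cathelicidin, the precursor of an antimicrobial peptide, and was listed for all neutrophil populations but Mature Neutrophils II. Its log2 fold change was 1.84 in Immature Neutrophils I, 1.68 in Immature Neutrophils II, 1.61 in Immature Neutrophils III and 1.71 in Mature Neutrophils I. These span 0.23 on the log2 scale, so the listed fold changes of Camp were close to each other. Each was taken against its own set of other cells, and Mature Neutrophils II has no entry. Whether the level of Camp itself was alike in these populations was not tested. Its place was 3, 2, 2 and 10 in the same order. The AUC of Camp was 0.887, 0.888, 0.874 and 0.857, lowest in the mature population.

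Ngp, neutrophilic granule protein, is a relative of the cathelicidins and cystatins that is stored in granules. Its log2 fold change was 1.56 in Immature Neutrophils I, 1.35 in Immature Neutrophils II and 1.89 in Mature Neutrophils I. The AUC was 0.842, 0.817 and 0.909 in that order, and the place 12, 15 and 6. The entry in Immature Neutrophils II was the last of that list. Unlike Camp, Ngp thus stood higher by each of these measures in Mature Neutrophils I than in the populations named immature that listed it. Each fold change has its own set of other cells, which includes the remaining neutrophils, and the difference between Camp and Ngp could not be tested without values per mouse.

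Ltf, Lcn2, Ly6g and Cd177 were listed for Mature Neutrophils I alone. Ltf codes for lactoferrin, the iron-binding protein that defines secondary granules, and led the list with an AUC of 0.932 and a log2 fold change of 2.19. Lcn2 codes for lipocalin 2, which withholds iron from bacteria by binding their siderophores, and was the third with 0.913 and 1.89. Ly6g, the GPI-anchored antigen used to mark mouse neutrophils, stood at place 9 with an AUC of 0.864 and a fold change of 1.99, the second largest of the 6 in this list. Cd177, a surface protein anchored in the same way, followed at place 11 with 0.844 and 1.46. With Ngp and Camp, these genes made up 6 of the 15 entries (40.0%), the highest proportion of any neutrophil list.

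Mmp8 codes for neutrophil collagenase, which cleaves fibrillar collagen. It was the only one of the 10 genes in Mature Neutrophils II, at place 3 of 16. Its AUC of 0.965 and its log2 fold change of 3.35 were the largest among the 18 entries. Inside the population 99.6% of cells had an Mmp8 value above 0, and outside it 61.0%. No gene of the 10 was listed for both mature populations, and only 2 of the 234 genes of the table were, so nothing is read from this absence. They were Pglyrp1, which codes for a granule protein that binds bacterial peptidoglycan, and Ifitm6, which was named after its values were seen. Pglyrp1 had log2 fold changes of 1.26 in Mature Neutrophils I and 1.49 in Mature Neutrophils II.

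**Figure D2:**
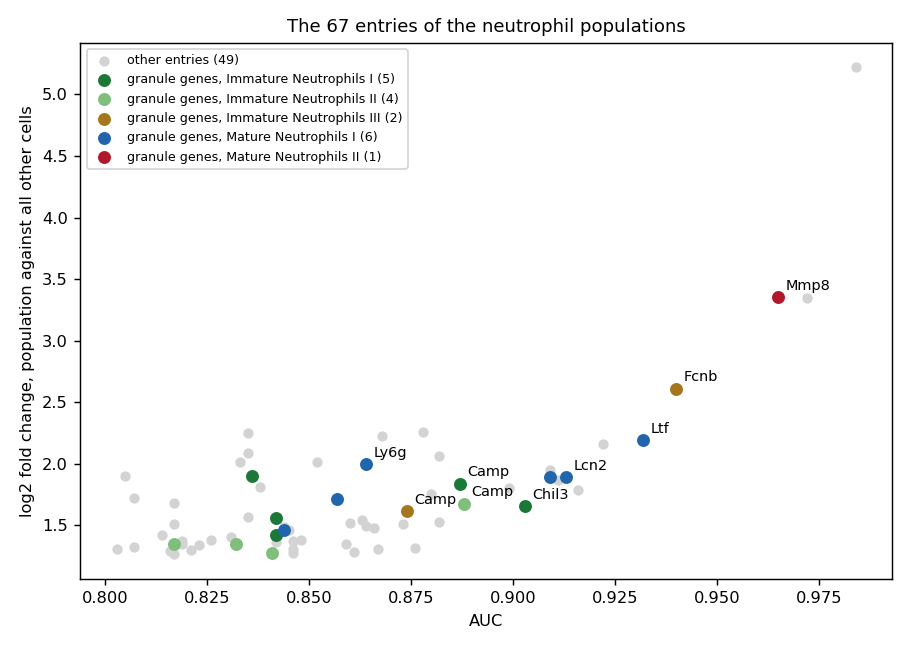
The AUC (x axis) and the log2 fold change (y axis) in the authors' table for the 67 entries of the 5 neutrophil populations, with the 18 entries of the 10 genes in colour by population and the 49 other entries in grey. Mmp8 in Mature Neutrophils II stands at 0.965 and 3.35 and Fcnb in Immature Neutrophils III at 0.940 and 2.61, and the other coloured points lie at log2 fold changes from 1.27 to 2.19.

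Over the 18 entries the median log2 fold change was 1.69, against 1.51 over the 49 other neutrophil entries and 2.25 over the 226 entries of other populations. The median AUC was 0.869, against 0.846 and 0.882. Since a list holds only genes that passed the authors' selection, these medians describe listed entries. Within single lists the median fold change of the granule genes was 1.89 in Mature Neutrophils I against 1.51 for the other entries, 1.66 against 1.43 in Immature Neutrophils I, and 1.35 against 1.37 in Immature Neutrophils II. By AUC the order was another: the median was 0.887 against 0.866 in Mature Neutrophils I, 0.842 against 0.846 in Immature Neutrophils I and 0.837 against 0.861 in Immature Neutrophils II. The median place of the granule genes was 7.5, 11 and 11.5 of 15 in these lists. In Immature Neutrophils I they thus had the higher median fold change but not the higher median AUC, and in Immature Neutrophils II, where the kinetochore gene Cenpf led, neither median was higher. The remaining lists held few granule genes, 2 in Immature Neutrophils III and 1 in Mature Neutrophils II. There the median fold change was 2.11 against 1.32 and 3.35 against 2.01. The median AUC was 0.907 against 0.812 and 0.965 against 0.838.

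The entries split in another way by how many cells had a value above 0. For Camp, Ngp, Chil3, Ltf and Lcn2 all 11 entries were at 100% inside the population, and 73.7% to 85.1% of all other cells also had a value. Most cells outside these populations therefore had a value for these genes too. For Cd177, Cebpe, Fcnb, Ly6g and Mmp8 the 7 entries were at 92.8% to 99.6% inside and at 60.3% to 76.3% outside, with differences from 23.2 to 38.6 percentage points. Mmp8 had the widest gap of these. Ly6g, at 97.0% against 62.3%, had the widest in Mature Neutrophils I, and by this measure it would lead the genes listed there in place of Ltf.

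**Figure D3:**
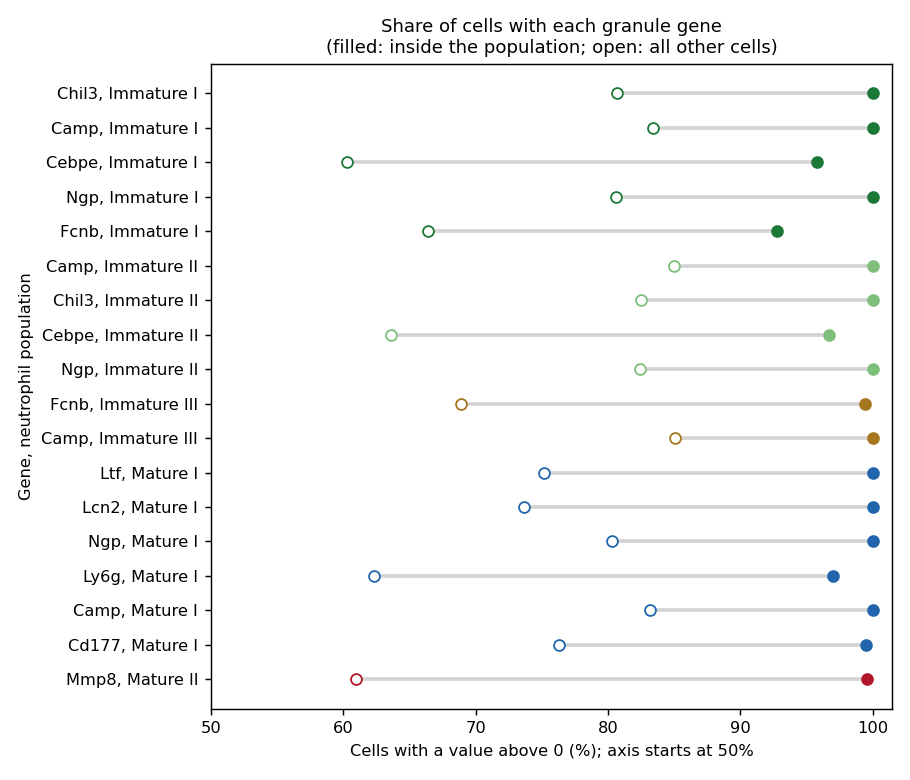
For each of the 18 entries, the percentage of cells with a nonzero value, in the population (filled) and among the rest of the cells (open), on an axis that starts at 50%. Camp, Ngp, Chil3, Ltf and Lcn2 reach 100% inside with 73.7% or more outside, while Mmp8 at 61.0%, Cebpe at 60.3% to 63.6% and Ly6g at 62.3% have the lowest outside shares.

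Outside shares of this size cover the remaining neutrophils as well as other cell types. The median was 78.3% for the 18 entries, 74.7% for the other neutrophil entries and 63.9% for the entries of other populations. The table gives no share for a cell type that should lack these genes, so free RNA in the droplets was not tested. It is also not stated whether a value is a UMI count or comes from the integrated data, and a share of cells with a value is therefore not read as a share of cells that express the gene.

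Genes listed for several populations also bear on the size of those populations. The share of all cells with a gene cannot be lower than the share outside any population that is rich in it. When taking out population A lowers the outside share more than taking out population B does, A must hold a certain least part of all cells, namely the difference of the outside shares divided by the difference between the inside and the outside share of A. Camp was above 0 in 83.2% of the cells outside Mature Neutrophils I and in 85.1% of those outside Immature Neutrophils III. Mature Neutrophils I accordingly held at least 11.3% of all cells, where the rounding of the shares allows 10.7% to 11.9%. Ngp, set against Immature Neutrophils II, gave 10.7%.

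For Immature Neutrophils I, Camp gave a least share of 10.2% (9.67% to 10.8%), Fcnb 9.47%, Chil3 9.33%, Cebpe 9.30% and Ngp 9.28%. These limits were close although the inside shares of the genes ran from 92.8% to 100%. They come from the same pooled cells and are not independent estimates. Taking the lower rounding limits of Camp, these populations together held at least 20.4% of the cells of all mice pooled. For Immature Neutrophils II, Camp gave a least share of 0.667%, where rounding allows 0, and for Immature Neutrophils III the granule genes gave no limit. The spread of the outside share of one gene over populations, 1.9 percentage points for Camp and 3.3 for Cebpe, thus follows from which cells were set aside.

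**Figure D4:**
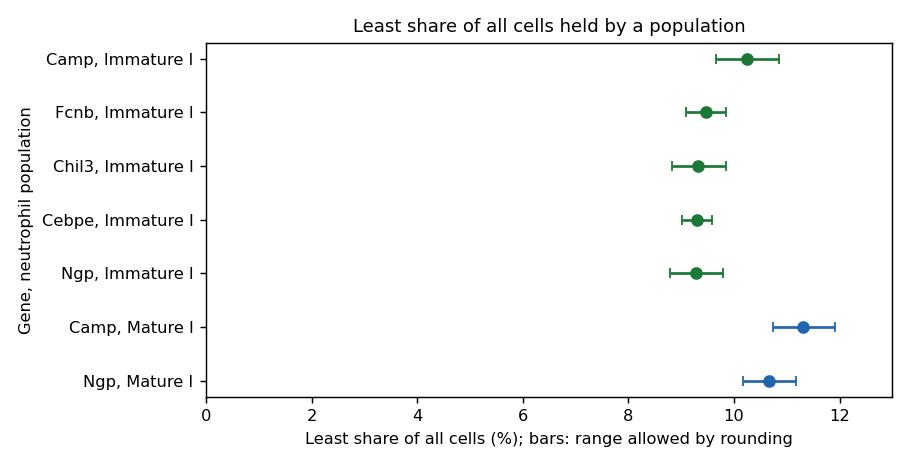
The least share of all cells, in percent, that Mature Neutrophils I (blue) and Immature Neutrophils I (green) must hold given the deposited shares of each gene, with bars for the range that rounding to 3 decimals allows. The values from Camp and Ngp lie at 11.3% and 10.7% for Mature Neutrophils I, and those from 5 genes between 9.28% and 10.2% for Immature Neutrophils I.

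Other granule and stage genes were followed from lists made with earlier results of these data known. The primary granule list (Mpo, Elane, Prtn3, Ctsg and Ms4a3) had all 5 genes listed and 0 of them for a neutrophil population. Their highest log2 fold changes stood in Myeloid prog, such as 4.83 for Elane, the neutrophil elastase gene. These 5 primary granule genes shared no population with the granule genes described here. Only 23.5% of all genes of the table were listed for a neutrophil population, so nothing is read from this absence. Cd63, which the study names with Mpo as a marker of Myeloid prog, was not on the primary granule list. It was listed for Immature Neutrophils III beside Fcnb and Camp, with an AUC of 0.807 and a log2 fold change of 1.33. Cd63 is not particular to that population, since it was also listed for Eosinophil/Basophil prog. Of 13 other later granule genes, 5 were listed, all for Mature Neutrophils II. They were Mmp9 (gelatinase B, 3.35), Adam8 (2.26), Slpi (2.09), Mmp25 (1.68) and Pglyrp1, of which the last also stood in Mature Neutrophils I. Mmp8 was listed in the same population as the tertiary granule gene Mmp9, and Ltf in the other mature one. Of all genes of the table, 12.4% were listed for a mature population. As the list was made with earlier results known, nothing further is read from its count.

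The proliferation list had 9 of its 20 genes in Immature Neutrophils I, 6 in Immature Neutrophils II, 2 in Immature Neutrophils III and 0 in either mature population. Of its 19 listed genes, 17 stood in a neutrophil population, against 23.5% of all genes of the table, and 12 stood in neutrophil populations only. The list was made with earlier results of these data known, so nothing further is read from this count. Camp, Ngp, Chil3 and Cebpe were listed in Immature Neutrophils I and II, whose lists also held genes of dividing cells such as Mki67, Top2a and Cenpf. Mki67 and Top2a are not particular to neutrophils, since both were also listed for Monocyte prog I. The late neutrophil list had 6 of 8 genes in Mature Neutrophils II, among them Retnlg at 5.22 and the chemokine receptor gene Cxcr2 at 2.25, and 0 in any other population. Beside it, 12.4% of all genes were listed for a mature population, and this list too was made with earlier results known. Of 6 other factors of the granule program, only 2 were listed, Cebpb for Monocytes and Runx1 for Eosinophil/Basophil prog. Cebpa, Cebpd, Gfi1 and Spi1 were listed for no population. Thus 0 of the 6 stood in a neutrophil population, where Cebpe did, but most of them had no entry to compare. Of 7 neutrophil markers, all but Csf3r were listed, and only for neutrophil populations, while 0 genes of the monocyte, macrophage, eosinophil and basophil, B cell, or T and NK cell marker lists stood there. Of the latter lists, Ly6c2, Ccr2, Adgre1, C1qa, Epx, Prg2 and Cd79a had no entry for any population. Since 23.5% of all genes stood in a neutrophil population, little is read from the absence of the rest. Per the study's methods, Chil3, Camp, Fcnb, Ly6g and other genes of these lists served as markers of the named populations, so this is no independent check of the names.

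The genes most like these in their pattern over the 17 populations were found by the Jaccard index, the number of shared populations divided by the number of populations of either gene. Outside the 10, S100a8 and S100a9, which code for the subunits of calprotectin, came closest to Ngp at 0.667 and to Camp at 0.50. Both were listed for Immature Neutrophils II and Mature Neutrophils I. Within the 10, the index was 1 for Chil3 and Cebpe and 0.75 for Camp and Ngp. For Fcnb, Cebpe and Chil3 the other genes at 0.50 were listed for a single immature population each, and most of those with Chil3 were genes of the cell cycle or histones, such as H3c3, Cenpf and Cdc20.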

How the data were processed

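Per the study's methods, the authors mapped reads with Cell Ranger to mm10, loaded counts into Seurat 4, removed cells with too few or too many genes or a high mitochondrial share, integrated samples by reciprocal PCA, clustered by the Louvain method and searched for marker genes per cluster. Their methods cite MAST, while the deposited columns are those of Seurat's ROC test. The deposited values used here are the AUC, a score; the authors' log2 fold change; and the fraction of cells above 0 inside and outside each population, printed as percentages. The table has 0 columns per sample, and the authors' power and average difference were not used. The treatment of doublets was not found in the sources read.

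Entries were read with Python 3.11.15 and pandas 2.3.3. Every entry of the 10 genes was used. Other genes were named where a fixed list held them or, for members of several populations, the Jaccard index reached 0.5. Ifitm6 and Cd63 were named after their values were seen. Members and lists were chosen with earlier results of these data known. Each entry compares a population with all other cells, which is what chose it, so no test was run. Least shares of cells were computed from the deposited shares with a rounding of 0.05 percentage points, and that step and the motif search were tested on simulated data. Alternatives were an AUC of at least 0.85, the first 10 entries of each list, other orders of the entries, other genes and a promoter window of the 200 bases before the start.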

Additional observations from a re-analysis of the deposited data

How the results depend on the processing

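With entries of an AUC of at least 0.85, or with the first 10 of each list, 11 of the 18 entries remained, all of them in neutrophil populations, and the genes listed for an immature population fell from 5 to 3 (Chil3, Camp and Fcnb). Those listed for a mature population went from 7 to 6 under both. Ordered by log2 fold change, the median place of the 18 entries was 4.5 in place of 7.5, and Fcnb replaced Chil3 at the head of the granule genes of Immature Neutrophils I. Ordered by the difference of shares, 2 of the 5 populations kept their first granule gene, with Cebpe in place of Chil3 and Camp in Immature Neutrophils I and II and Ly6g in place of Ltf in Mature Neutrophils I. In the 200 bases before the start, 2 genes in place of 4 had TATAAA, and 4 in place of 6 had TTNNGCAA, while the shares of all promoters fell to 9.96% and 7.47% and other neutrophil genes had 10 and 4 of 42. The least share of Mature Neutrophils I was 10.2% from S100a8 and 9.80% from S100a9, with rounding ranges that overlap that of the value from Camp. No paired analysis was possible because the table holds no value per sample. Without depth, cell numbers or values per mouse, the precision of the shares and fold changes is unknown.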

Other observations

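H1f5, a linker histone gene listed for both Immature Neutrophils I and Pre/pro B cells, was set against the latter, a lymphoid population. It gave a least share of 10.7% of all cells for Immature Neutrophils I (10.2% to 11.3% by rounding), beside 10.2% from Camp. Both are lower limits from the same pooled cells, so their closeness is no independent check. H1f4, Kif11, Top2a and Mki67, set against Monocyte prog I, gave only 2.74% to 3.93%, which is a weaker limit of the same kind and does not contradict it. Between the mature populations, Ifitm6 and Pglyrp1 had outside shares of 78.5% and 78.9% for Mature Neutrophils I and 78.9% and 79.0% for Mature Neutrophils II.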
